A study of Caenorhabditis elegans with 11 samples.

Results

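The neuropeptide genes described here were the rows of the deposited read counts whose symbols begin with flp, nlp, pdf, ntc or snet followed by a number, without nlp-24 to nlp-34. The rule uses names alone. It found 67 of 42048 genes, of which 31 are flp, 33 nlp, and pdf, ntc and snet have 1 each, and it left out the 11 genes from nlp-24 to nlp-34. RNA came from whole Caenorhabditis elegans adults kept at 16 °C from the embryo on live Escherichia coli, in pools of about 150 worms, so each library mixes neurons with every other tissue. Wild-type N2 worms on K12, which makes indole, gave 3 early and 2 late libraries, and N2 worms on K12tnaA (called tnaA below), a K12 strain without the tryptophanase that makes indole, gave 2 early and 2 late libraries. Another group, of 2 late libraries, came from ahr-1(ia3) worms on K12, which carry a loss-of-function allele of the aryl hydrocarbon receptor gene. Late worms were 12 days old, and early worms were 3 days old by their labels and 2 days by the design text.

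Neuropeptide genes encode precursor proteins that convertases cut and other enzymes trim and amidate inside dense core vesicles. The released peptides act on G protein-coupled receptors and change how circuits behave over longer times than fast transmitters do. In C. elegans the flp genes encode FMRFamide-like peptides, the nlp genes a mixed class of other neuropeptide-like proteins, pdf-1 a pigment-dispersing factor, ntc-1 the oxytocin and vasopressin relative nematocin, and snet-1 a peptide that acts in olfactory plasticity. Most are made by neurons, but some come from other tissues, nlp-40 from the intestine among them.

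Libraries held 8310145 to 15307891 gene counts, of which neuropeptide genes took 408 to 443 CPM (read counts scaled to the library total) in early and 628 to 788 CPM in late libraries. Of the 67 genes, 63 passed the filter on low counts and were tested. The other 4 were flp-23, nlp-22, nlp-23 and nlp-46, with 9, 1, 7 and 46 reads over all 11 libraries. All levels below are CPM on library sizes scaled by TMM, a method that corrects for differences in composition, and libraries of a group are listed by ascending replicate number. ahr-1 itself had 56 and 35 reads in late N2 K12 and 19 and 14 in late ahr-1 libraries, beside 44 and 17 in late N2 tnaA libraries and 3 to 13 in early ones. The difference between late ahr-1 and late N2 K12 libraries did not pass the test (log2 fold change -1.03 ± 0.47, adjusted p = 0.130), so these counts leave the mutant label unchecked. Summed sperm markers stood apart in a pair of early libraries, N2 K12 replicate 3 and N2 tnaA replicate 2, at up to 113 and 118 CPM against 17.5 and 29.4 CPM at the low end of each group. Pan-neuronal markers summed to 998 to 1056 CPM in early and 1296 to 1535 CPM in late libraries.

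Per kilobase of coding sequence, the scale on which genes can be ranked, levels averaged over the 5 groups had a median of 16.3 and a maximum of 235.8 CPM per kb among the 63 genes with a coding length. nlp-40, which the intestine secretes to drive the defecation rhythm, was highest at 235.8 CPM per kb. It was followed by nlp-36 at 140.6, flp-15 at 106.2, flp-28 at 58.8 and pdf-1 at 58.4 CPM per kb. The order depended on age. In late tnaA worms nlp-40 and flp-15 stood at 189 and 178 CPM per kb, whereas in early K12 worms they stood at 284 and 14.5 CPM per kb. At the other end, flp-23, nlp-23 and nlp-22 were at 0.118, 0.113 and 0.0253 CPM per kb.

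Ageing was measured separately on each bacterium, late against early, with no library shared between the comparisons. A small set of precursors rose steeply in late worms on both bacteria, led by nlp-39, flp-15, flp-25, nlp-16 and flp-5. The intestinal peptide gene nlp-40 fell, as did nlp-36. With TMM scaling, pdf-1, ntc-1, snet-1 and the peptides known for locomotion stayed under the threshold with a single exception, nlp-12 on tnaA. Several of them were called under other scalings, given below. A gene is called here at an adjusted p under 0.05 by edgeR's quasi-likelihood test, with Benjamini-Hochberg adjustment over all 15133 genes tested. In bulk RNA, fewer cells of a type and less RNA per cell cannot be told apart.

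On K12, 14 of 63 neuropeptide genes were called higher and 9 lower, against a background of 32.9% of all genes tested called higher and 36.7% lower. On tnaA, 19 were called higher and 6 lower, against a background of 35.6% and 36.3%. Called genes made up 36.5% of the neuropeptide genes on K12, where 69.6% of all genes were called, and 39.7% on tnaA, where 72% were. Neuropeptide genes had a lower median level than all genes tested, 6.13 against 12.6 CPM, and a larger median standard error on K12, 0.19 against 0.15 on the log2 scale. Their median log2 fold change was 0.10 on K12 and 0.21 on tnaA, beside -0.04 and 0.02 over all genes tested. With at least a 2-fold change required as well, 8 rose and 3 fell on K12 (background 21% and 13.6%), and 9 rose and 1 fell on tnaA (background 25.3% and 14.8%).

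The genes called on both bacteria numbered 13 higher and 5 lower. The 13 were flp-5, flp-6, flp-10, flp-15, flp-16, flp-24, flp-25, flp-28, flp-34, nlp-13, nlp-14, nlp-16 and nlp-39, which is 92.9% of the K12 list and 68.4% of the tnaA list. The 5 were flp-8, nlp-10, nlp-20, nlp-36 and nlp-40, or 55.6% and 83.3% of the lists. Called on K12 alone were nlp-8, higher, and flp-4, flp-12, flp-17 and nlp-4, lower. Called on tnaA alone were flp-21, flp-27, nlp-2, nlp-15, nlp-17 and nlp-21, higher, and nlp-12, lower. No gene was called in opposite directions, 46 of 63 had the same sign on both, and 33 were called on neither. The matching figures over all genes tested were not computed, so this agreement says nothing particular to neuropeptide genes. By family, 9 of 30 flp genes rose and 4 fell on K12 and 11 and 1 on tnaA, and of 30 nlp genes 5 and 5 were called on K12 and 8 and 5 on tnaA. The background for these counts was 32.9% higher and 36.7% lower on K12, and 35.6% and 36.3% on tnaA. In all 23 calls on K12 and all 25 on tnaA the early and late libraries did not overlap. The share of all genes tested without overlap was not computed, so this says nothing particular to neuropeptide genes.

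**Figure D1:**
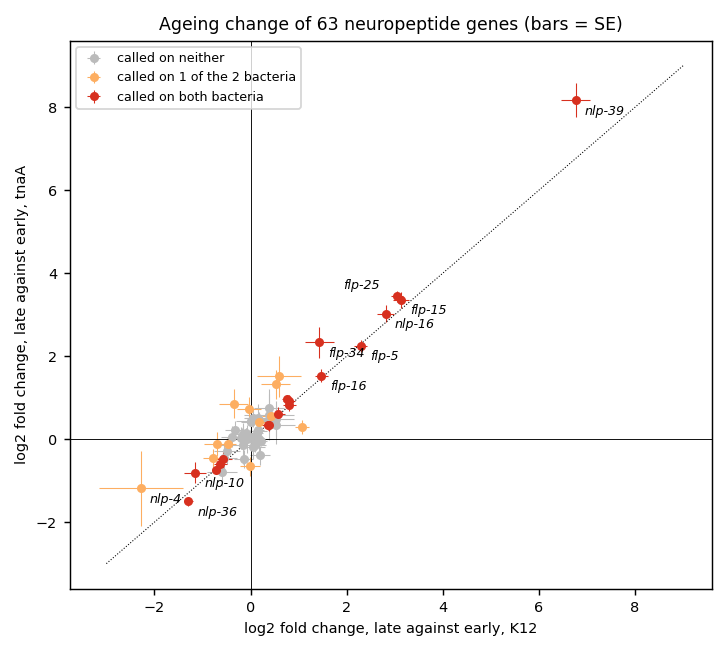
Log2 fold change of the 63 neuropeptide genes tested, late against early N2 worms, on K12 (horizontal axis) and on tnaA (vertical axis), with bars for the standard error and the dotted line where both are equal. nlp-39 lies apart at the upper right, followed by flp-25, flp-15, nlp-16 and flp-5, while nlp-36 lies at the lower left. Grey points, called on neither bacterium, gather around 0.

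nlp-39 was close to undetected in early worms, with 2, 1 and 1 reads on K12 and 1 and 0 on tnaA. Late worms had 210 and 220 reads on K12 and 225 and 145 on tnaA, or 12.01 and 13.3 and 13.3 and 14.9 CPM. Every late library was thus far above every early library, and late ahr-1 worms were as high, at 18.6 and 15.1 CPM. The late to early ratio on K12 was 118, with an exact 95% counting interval of 45.8 to 435. On tnaA it was 349, with an interval of 62.2 to 13820 because the early group held 1 read. The gene was called on both bacteria (adjusted p = 3.17e-10 on K12 and 7.67e-10 on tnaA).

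flp-15, which is expressed in I2 neurons of the pharynx and PHA neurons of the tail, stood at 3.92, 3.28 and 4.12 CPM in early K12 and 4.57 and 4.41 CPM in early tnaA libraries. In late libraries it stood at 31.1 and 35.03 CPM on K12 and 43.03 and 49.7 CPM on tnaA. Early libraries lay in a narrow band and late libraries far above it, with tnaA above K12. The log2 fold change was 3.13 ± 0.17 on K12 and 3.36 ± 0.19 on tnaA (adjusted p = 2.66e-09 and 2.93e-09). npr-3, the gene of a receptor for FLP-15 peptides that was named here after its values were seen, had 0.833, 0.320 and 0.389 CPM in early and 2.23 and 2.602 CPM in late K12 libraries, and was called higher on K12 (log2 fold change 2.22 ± 0.48) and on tnaA (2.67 ± 0.55).

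flp-25 had 2.08, 2.16 and 1.95 CPM in early K12 and 2.33 and 1.96 CPM in early tnaA libraries. Late libraries had 16.8 and 17.4 CPM on K12 and 23.05 and 23.7 CPM on tnaA. Replicates were tight at both ages, and the groups were far apart. The log2 fold change was 3.04 ± 0.13 on K12 and 3.44 ± 0.14 on tnaA (adjusted p = 1.96e-10 and 1.85e-10). nlp-16 went from 7.16, 6.09 and 5.76 CPM in early K12 to 52.1 and 36.5 CPM in late K12 libraries. On tnaA it went from 5.81 and 5.22 to 44.03 and 45.8 CPM. Its late K12 replicates differed from each other more than those of the other leading genes, but both lay above all early values, and the log2 fold change was 2.81 ± 0.17 on K12 and 3.02 ± 0.21 on tnaA (adjusted p = 8.03e-09 and 1.95e-08).

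flp-5, which is expressed in pharyngeal and sensory neurons, had 4.58, 4.33 and 4.67 CPM in early and 21.7 and 22.8 CPM in late K12 libraries, and 5.19 and 5.47 against 22.1 and 29.1 CPM on tnaA. On the log2 scale the change was 2.29 ± 0.13 and 2.25 ± 0.15 (adjusted p = 4.04e-09 and 1.26e-08). flp-16 had 4.498, 5.69 and 5.45 CPM in early and 15.1 and 13.9 CPM in late K12 libraries, and 5.89 and 4.81 against 14.2 and 16.99 CPM on tnaA. All late values of both genes lay above all early values. For flp-16 the change was 1.47 ± 0.14 and 1.53 ± 0.16 (adjusted p = 5.3e-07 and 1.23e-06), and its exons overlap those of romo-1 on the opposite strand, whose reads cannot be told apart here. flp-34, released from serotonergic neurons in aversive olfactory learning, was lower in level, at 0.666, 1.202 and 1.17 CPM in early and 3.09 and 2.42 CPM in late K12 libraries, and 0.775 and 0.653 against 3.48 and 3.81 CPM on tnaA. Its change was 1.43 ± 0.31 and 2.33 ± 0.37 (adjusted p = 0.000967 and 6.48e-05).

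Smaller rises were called on both bacteria for flp-6, which AFD thermosensory neurons express and which acts in temperature-dependent lifespan. It had 15.8, 13.9 and 15.5 CPM in early and 24.02 and 26.8 CPM in late K12 libraries (log2 fold change 0.75 ± 0.09, adjusted p = 7.78e-06) and 0.96 ± 0.11 as the change on tnaA (adjusted p = 2.09e-06). flp-28 differed by less, 11.9, 10.7 and 9.805 against 13.7 and 13.98 CPM on K12, with changes of 0.35 ± 0.11 and 0.33 ± 0.12, and its call was lost without late K12 replicate 3 on K12 and without any of the 4 tnaA libraries on tnaA. Its neighbours on the chromosome, flp-3 and flp-2, had changes of 0.00 and -0.07 on K12, neither called. nlp-2 passed on tnaA alone, with 1.71 and 1.14 CPM in early and 3.01 and 5.35 CPM in late libraries (log2 fold change 1.51 ± 0.49, adjusted p = 0.013) beside 0.59 ± 0.47 on K12. The call on nlp-2 was lost without early tnaA replicate 3 or late tnaA replicate 3.

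**Figure D2:**
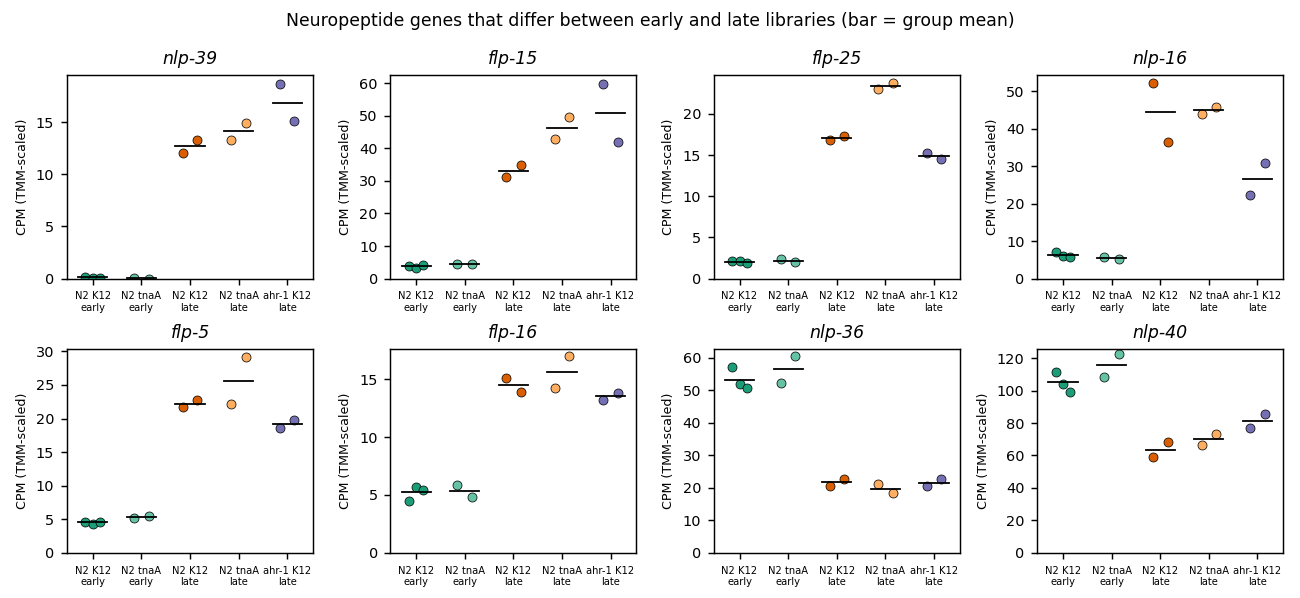
Level of 8 neuropeptide genes in every library, in CPM on TMM-scaled library sizes, with each point a library and each bar the mean of its group. nlp-39, flp-15, flp-25, nlp-16, flp-5 and flp-16 are low in both early groups and high in all 3 late groups, and nlp-36 and nlp-40 show the reverse.

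A few genes with large rises took a larger part of the sum in late worms. nlp-39, flp-15, nlp-16, flp-25 and flp-5, a set picked after their values were seen, together took 3.15% to 3.62% of neuropeptide reads in early and 19.6% to 24.3% in late libraries. All neuropeptide genes summed to 465 to 513 CPM in early and 549 to 573 CPM in late K12 libraries, and to 496 to 541 and 602 to 674 CPM on tnaA. Without those genes the sums were 448 to 495 and 416 to 448 CPM on K12, and 478 to 523 and 456 to 511 CPM on tnaA. Early and late values did not separate on tnaA. On K12 late values lay below the early ones by a narrow margin, 447.8 against 448.4 CPM for the nearest libraries. nlp-40 and nlp-36, abundant genes that fell, were kept in these sums, so the sums do not show how the remaining genes moved.

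nlp-40 fell on both bacteria. It stood at 112, 104.1 and 99.2 CPM in early and 59.2 and 68.1 CPM in late K12 libraries, and at 109 and 123 against 66.4 and 73.3 CPM on tnaA. Early and late libraries did not overlap. The log2 fold change was -0.72 ± 0.08 and -0.73 ± 0.09 (adjusted p = 4.02e-06 and 7.64e-06), and its part of all neuropeptide reads went from between 21.3% and 22.7% to between 10.8% and 11.9% in late N2 worms. aex-5, the convertase gene that acts with nlp-40 in the defecation program, was also called lower (-1.49 ± 0.16 and -1.59 ± 0.17), whereas aex-2, the gene of the NLP-40 receptor, had changes of 0.23 ± 0.48 and 0.40 ± 0.57 and was called on neither. Of 15 intestine markers 13 were called lower on K12 and 13 on tnaA, with medians of -1.54 and -1.44, and their part in the nlp-40 result was not tested.

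nlp-36 fell further. It had 57.3, 51.9 and 50.7 CPM in early and 20.6 and 22.9 CPM in late K12 libraries, and 52.3 and 60.7 against 21.2 and 18.4 CPM on tnaA, with no overlap. Its log2 fold change was -1.29 ± 0.10 and -1.50 ± 0.11 (adjusted p = 4.98e-08 and 3.13e-08). Its exons overlap those of dars-1 on the opposite strand, a gene with more reads whose own change was -0.18 and -0.21. nlp-10 had 7.58, 8.41 and 6.85 CPM in early and 3.202 and 3.63 CPM in late K12 libraries (log2 fold change -1.15 ± 0.22, adjusted p = 0.000387). On tnaA it had 4.42 and 7.34 against 3.48 and 3.19 CPM (-0.80 ± 0.25, adjusted p = 0.0109), a call lost without early tnaA replicate 3. nlp-20 had 15.2, 14.2 and 14.01 CPM in early and 9.03 and 9.68 CPM in late K12 libraries, and its change was -0.63 ± 0.13 and -0.60 ± 0.14 (adjusted p = 0.000734 and 0.00187).

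flp-4 and flp-12 were called lower on K12 alone, at -0.69 ± 0.27 and -0.47 ± 0.16, beside -0.11 ± 0.28 and -0.12 ± 0.17 on tnaA. The flp-4 call was lost without any of early K12 replicate 1, early K12 replicate 2 and late K12 replicate 3, and the flp-12 call without early or late K12 replicate 1. For neither gene was the difference between the bacteria called (adjusted p = 0.427 and 0.409). nlp-4, called lower on K12, and flp-23 had few reads and are named here after their values were seen. nlp-4 had 28 reads in early and 5 in late K12 libraries, a ratio of 5.10 with a counting interval of 1.94 to 16.9, and its call was lost without early or late K12 replicate 3. flp-23 had 7 reads in early K12 and 0 in late K12 libraries, a ratio of 2.13 when a floor of 3 counts stands for the late group. That ratio leaves out the counting error of the 7 reads, and flp-23 was not tested.

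Peptides that promote sleep were next. flp-11, from RIS neurons, and flp-13, flp-24, nlp-8 and nlp-14, which act in the ALA neuron during stress-induced sleep, were tested, and nlp-22, from RIA neurons, had 1 read. Of the 5 tested, 3 were called higher on K12 and 2 on tnaA, and none lower. The background was 32.9% of all genes called higher and 36.7% lower on K12, and 35.6% and 36.3% on tnaA. With so few genes, the counts say nothing particular to sleep peptides. None of these calls held with size factors from pan-neuronal markers, given below. nlp-8 had 3.83, 3.61 and 4.36 CPM in early and 7.95 and 8.53 CPM in late K12 libraries (log2 fold change 1.06 ± 0.15, adjusted p = 2.63e-05). On tnaA it had 5.58 and 6.69 against 7.72 and 7.31 CPM (0.30 ± 0.16, adjusted p = 0.118). Late levels lay between 7.31 and 8.53 CPM on both bacteria and early levels were lower on K12, but the difference in ageing change, 0.77 ± 0.22, was not called (adjusted p = 0.0783).

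nlp-14 had 9.25, 8.65 and 8.95 CPM in early and 14.6 and 16.8 CPM in late K12 libraries, and 7.98 and 11.1 against 15.9 and 18.1 CPM on tnaA. It was called on both, at 0.81 ± 0.13 and 0.83 ± 0.15 (adjusted p = 0.000102 and 0.000223). flp-24, named after its values were seen, was also called on both, at 0.39 ± 0.12 and 0.33 ± 0.14, close to the threshold on tnaA (adjusted p = 0.0472), where the call held without early K12 replicate 1 and was lost without any other library. Its K12 call was lost without late K12 replicate 1. flp-13 had changes of 0.41 ± 0.18 and 0.42 ± 0.20 and flp-11 of -0.33 ± 0.21 and 0.22 ± 0.23, none called. flp-11 overlaps tmem-135 on the opposite strand.

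The gas-sensing neurons BAG and URX give flp-8, flp-10, flp-17 and flp-19, of which 1 was called higher and 2 lower on K12, and 1 and 1 on tnaA. Over all genes tested, 32.9% were called higher and 36.7% lower on K12, and 35.6% and 36.3% on tnaA. flp-10 rose, with 4.998, 5.29 and 5.76 CPM in early and 8.92 and 9.802 CPM in late K12 libraries and 5.35 and 5.79 against 11.02 and 9.99 CPM on tnaA. Its change was 0.80 ± 0.13 and 0.92 ± 0.15 (adjusted p = 8.89e-05 and 6.9e-05). flp-17, the other known ligand gene of the egg-laying receptor EGL-6, went the other way on K12, from 6.33, 4.97 and 5.603 to 3.03 and 3.51 CPM (-0.78 ± 0.20, adjusted p = 0.00307). On tnaA its change was -0.46 ± 0.21 and was not called (adjusted p = 0.0693). egl-6 itself, named after its values were seen, was called lower on both, at -0.84 ± 0.18 and -1.002 ± 0.21.

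flp-8 had 7.997, 6.73 and 6.61 CPM in early and 4.29 and 5.26 CPM in late K12 libraries (-0.57 ± 0.19, adjusted p = 0.0168). Its call on K12 was lost without early or late K12 replicate 1, and on tnaA (-0.49 ± 0.21, adjusted p = 0.0475) without any of 6 libraries. It overlaps F31F6.11 on the opposite strand. flp-19, whose opposite-strand partner abl-1 was called higher, had changes of -0.16 ± 0.25 and 0.12 ± 0.28. nlp-3 and nlp-7, which act in egg-laying, had changes of -0.09 ± 0.16 and -0.40 ± 0.22 on K12 and 0.10 ± 0.17 and 0.06 ± 0.24 on tnaA, none called.

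flp-18 and flp-21 encode ligands of NPR-1, the receptor that sets aggregation and oxygen responses. flp-21 had 1.33, 1.28 and 1.63 CPM in early and 1.601 and 2.48 CPM in late K12 libraries (0.52 ± 0.31, adjusted p = 0.147). On tnaA it had 1.32 and 1.22 against 2.83 and 3.604 CPM and was called (1.32 ± 0.34, adjusted p = 0.0036). flp-18 was not called, at 9.58, 9.93 and 8.33 against 9.32 and 10.4 CPM on K12, with changes of 0.09 ± 0.15 and -0.14 ± 0.17. The difference between the bacteria in the flp-21 change, -0.80 ± 0.47, was not called (adjusted p = 0.349).

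Among peptides of locomotion and arousal, none of pdf-1, flp-1, flp-2, flp-14, flp-20 and nlp-12 was called on K12. pdf-1 had 13.8, 13.2 and 14.7 CPM in early and 13.2 and 14.5 CPM in late K12 libraries, overlapping (log2 fold change -0.01 ± 0.14). flp-1, from AVK neurons, had 13.7, 14.98 and 12.1 against 14.9 and 16.6 CPM (0.21 ± 0.13), and flp-14 16.9, 14.2 and 14.2 against 14.01 and 14.5 CPM (-0.08 ± 0.11). Their standard errors, 0.11 to 0.14, were below the median of 0.19 over the neuropeptide genes. Under other scalings, given below, pdf-1, flp-1 and flp-14 were called. flp-2 and flp-20 had wider errors, with changes of -0.07 ± 0.29 and 0.53 ± 0.37. nlp-12, the cholecystokinin-like gene of the DVA neuron, was called on tnaA alone, from 4.495 and 4.49 to 2.59 and 3.19 CPM (-0.65 ± 0.23, adjusted p = 0.0216), a call lost without either early tnaA library or late tnaA replicate 2.

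The calls were completed by nlp-13, nlp-15, nlp-17, nlp-21 and flp-27, which fall outside the rule for named genes and are named after their values were seen. nlp-13 had changes of 0.56 ± 0.16 and 0.60 ± 0.18, beside -0.18 ± 0.19 and 0.05 ± 0.21 for nlp-9, its neighbour on the chromosome. Its call was lost on K12 without late K12 replicate 3, and on tnaA without early tnaA replicate 2 or late tnaA replicate 3. On tnaA the change was 0.57 ± 0.20 for nlp-15, 0.86 ± 0.34 for nlp-17, 0.41 ± 0.16 for nlp-21 and 0.74 ± 0.29 for flp-27, beside 0.42 ± 0.18, -0.35 ± 0.30, 0.17 ± 0.15 and -0.02 ± 0.25 on K12. The calls on nlp-17 and flp-27 were lost without any of the 4 tnaA libraries, that on nlp-15 without early replicate 2 or late replicate 3, and that on nlp-21 without early replicate 3 or either late one. nlp-17 and nlp-21 overlap seld-1 and subs-4 on the opposite strand.

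The 33 genes called on neither bacterium ran from -0.60 for nlp-41 to 0.53 for flp-20 on K12, and from -0.78 for nlp-41 to 0.75 for nlp-35 on tnaA. nlp-41 overlaps mog-4 on the opposite strand, a gene with many more reads, and nlp-35 overlaps C33A12.19. Of the 33, flp-7, which signals from ASI neurons to intestinal fat, had changes of 0.04 ± 0.27 and -0.19 ± 0.29, and flp-9 of 0.16 ± 0.12 and 0.21 ± 0.13. nlp-18 had changes of 0.10 ± 0.15 and -0.08 ± 0.17. snet-1 had 7.997, 6.81 and 5.29 CPM in early and 6.98 and 5.08 CPM in late K12 libraries (-0.15 ± 0.19) and -0.47 ± 0.21 as its change on tnaA (adjusted p = 0.062). nep-2, the neprilysin gene known to limit snet-1 signalling, was called lower on both, at -0.96 ± 0.16 and -0.95 ± 0.17, and was named after its values were seen. ntc-1 was rare, at 0.416, 0.721 and 0.623 CPM in early and 0.629 and 0.424 CPM in late K12 libraries (-0.15 ± 0.47), and overlaps tsp-14 on the opposite strand, which was called higher.

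Genes that make, release and read neuropeptides are given next, against a background of 32.9% of all genes called higher and 36.7% lower on K12. On tnaA the background was 35.6% and 36.3%. Of 13 genes for processing and amidation, 6 were called higher and 3 lower on K12 and 6 and 2 on tnaA, with medians of 0.17 and 0.23. sbt-1, the chaperone of the convertase EGL-3, rose by 0.91 ± 0.07 and 1.08 ± 0.08 on the log2 scale, and pghm-1, an amidating enzyme, by 0.61 ± 0.10 and 0.91 ± 0.11. Of 22 genes for dense core vesicles and their release, 15 were called higher and 2 lower on K12 and 17 and 2 on tnaA, with medians of 0.57 and 0.94. The priming factor gene unc-13 rose by 1.74 ± 0.08 and 2.13 ± 0.09, the rabphilin gene rbf-1 by 2.35 ± 0.12 and 3.05 ± 0.14, and aex-3, an activator of RAB-3, by 2.18 ± 0.11 and 2.55 ± 0.13.

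Of 36 neuropeptide receptor genes tested, 11 were called higher and 5 lower on K12 and 16 and 3 on tnaA, with medians of 0.39 and 0.57. aexr-1, with 0.167, 0.401 and 0.623 CPM in early and 12.98 and 15.1 CPM in late K12 libraries, had the smallest p (5.10 ± 0.32 and 6.91 ± 0.43), and nmur-4, a neuromedin U receptor gene, fell (-1.93 ± 0.19 and -3.04 ± 0.21). fshr-1, the glycoprotein hormone receptor gene, fell on both (-0.74 ± 0.11 and -0.73 ± 0.13), and frpr-18, the gene of an FLP-2 receptor, rose on both (1.84 ± 0.37 and 3.36 ± 0.48). Of 25 pan-neuronal markers, some of them also on the release list, 19 were called higher and 2 lower on K12 and 20 and 4 on tnaA, with medians of 0.92 and 1.09, beside 0.10 and 0.21 for the neuropeptide genes. The part of these shifts in the neuropeptide counts was not tested. Of markers of other tissues on K12, 14 of 15 for body wall muscle and 19 of 20 for germline were called lower, while hypodermis had 5 higher and 3 lower of 13 (median 0.30) and embryo 3 and 3 of 10 (median 0.02).

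**Figure D3:**
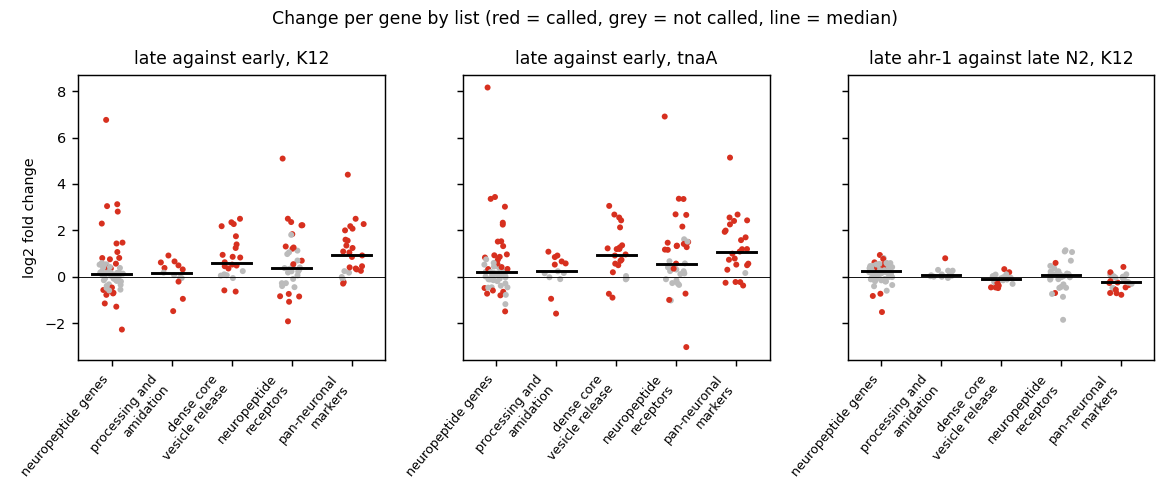
Log2 fold change of each gene, by list, for ageing on K12, ageing on tnaA and late ahr-1 against late N2, with red points called, grey points not called and a black line at the median. In both ageing panels the dense core vesicle and pan-neuronal medians lie above that of the neuropeptide genes, and in the ahr-1 panel they lie below it.

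Directions in ageing depended on scaling. With library size alone, which moved the median of all genes by 0.42 on K12 and 0.47 on tnaA, 31 neuropeptide genes were called higher and 3 lower on K12 and 36 and 2 on tnaA. With size factors from pan-neuronal markers, which moved that median by -0.82 and -1.01, 6 were called higher and 42 lower on K12 and 7 and 42 on tnaA. Not called with TMM, pdf-1, flp-1 and flp-14 were called on both bacteria under each of these scalings, higher with library size and lower with the markers. Called on both bacteria with the markers alone were flp-2 and snet-1. The markers did not move as one, with 19 of 25 called higher and 2 lower on K12 and 20 and 4 on tnaA. This scaling is therefore relative to that list and does not measure the neuronal part of the RNA. Under it only nlp-39, flp-15, flp-25, nlp-16, flp-5 and flp-16 were still called higher on both bacteria, with flp-34 on tnaA as well. All called falls were still called. Of the 14 rises on K12, 6 turned below 0 (flp-6, flp-10, flp-24, flp-28, nlp-13 and nlp-14), and of the 19 on tnaA 10 did, these and flp-27, nlp-15, nlp-17 and nlp-21. With DESeq2's size factors in edgeR the counts were 16 and 8 on K12 and 22 and 5 on tnaA. Without both early libraries high in sperm transcripts, 12 were called higher and 9 lower on K12, and 14 and 6 on tnaA, of which 20 and 17 were among the calls above. Genes called in every setting run were flp-5, flp-15, flp-16, flp-25, nlp-16, nlp-36, nlp-39 and nlp-40 on both bacteria, with nlp-10 on K12 and flp-34 on tnaA.

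The comparison of bacteria asks how indole-producing and indole-free E. coli differ for worms of the same age. In late N2 worms flp-25 and flp-15 were lower on K12 than on tnaA, and no neuropeptide gene was called higher. The background was 5.85% of all genes called higher and 4.27% lower, against 0 and 2 of 63 here. The test without adjustment gave 0 higher and 8 lower at p under 0.05, DESeq2 called 0 in either direction, and the median over the 63 genes was -0.18 beside -0.06 over all genes. The share of all genes at that unadjusted threshold was not computed, so these unadjusted counts have no background here.

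flp-25 had 16.8 and 17.4 CPM on K12 and 23.05 and 23.7 CPM on tnaA in late worms (log2 fold change, K12 minus tnaA, -0.45 ± 0.10, adjusted p = 0.0205). flp-15 had 31.1 and 35.03 against 43.03 and 49.7 CPM (-0.48 ± 0.14, adjusted p = 0.0465). For both genes each tnaA library was above each K12 library. These late libraries also enter the ageing comparisons, where both genes rose on each bacterium. Each call was lost when any of the 4 late N2 libraries was left out, and flp-15 also without early K12 replicate 2 or either early tnaA library. The authors' deposited table for this comparison lists flp-15 alone of the neuropeptide genes, with a log2 fold change of -0.36 and an adjusted p of 0.0179.

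Larger but noisier differences in late worms stayed under the threshold. nlp-2 had 1.83 and 1.82 CPM on K12 and 3.01 and 5.35 CPM on tnaA (-1.16 ± 0.46, adjusted p = 0.126), and flp-4 2.29 and 1.51 against 3.18 and 3.19 CPM (-0.74 ± 0.29, adjusted p = 0.126). flp-11 had 4.17 and 5.14 against 6.84 and 7.62 CPM (-0.63 ± 0.23, adjusted p = 0.0961). For nlp-39, nlp-16, flp-5, nlp-40 and nlp-36, which were called in ageing in every setting run but not between the bacteria here, the late difference was -0.15, -0.02, -0.19, -0.13 and 0.12, with standard errors of 0.09 to 0.16. Germline markers differed with the bacteria, 18 of 20 called higher on late K12, and their part in these values was not tested.

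In early N2 worms no neuropeptide gene was called between the bacteria, where the background was 0.0132% higher, 0.0529% lower and 0.0661% in either direction (0.0132% and 0.033% with a 2-fold change as well). The unadjusted test gave 0 higher and 3 lower at p under 0.05, and DESeq2 called 0. nlp-8 came nearest, at 3.83, 3.61 and 4.36 CPM on K12 and 5.58 and 6.69 CPM on tnaA (-0.64 ± 0.16, adjusted p = 0.169). The difference between the ageing changes on the bacteria was likewise called for no neuropeptide gene (background 1.43% higher, 0.971% lower and 2.41% in either direction, 1 and 1 at unadjusted p under 0.05, and 0 by DESeq2). The members' median standard error for that difference was 0.29, larger than for either ageing change. For neither comparison was the share of all genes at unadjusted p under 0.05 computed.

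The ahr-1 comparison asks how loss of the receptor alters late worms on K12. nlp-20 was lower and nlp-18 higher in ahr-1 worms, and these were the neuropeptide genes whose call held without any single library. In all, 7 were called higher, flp-4, flp-6, flp-9, flp-10, flp-15, nlp-18 and nlp-40, and 3 lower, nlp-20, flp-8 and nlp-16. The background was 12.3% of all genes higher, 12.2% lower and 24.4% in either direction, against 11.1% and 4.76% of the neuropeptide genes. Their median log2 fold change was 0.24, beside 0 over all genes, and 45 of 63 were above 0.

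nlp-20 stood at 2.67 and 3.77 CPM in late ahr-1 libraries and at 9.03 and 9.68 CPM in late N2 K12 libraries. It was also lower than in late tnaA libraries, 10.1 and 12.2 CPM, and than in early ones, 15.2, 14.2 and 14.01 CPM on K12 and 17.5 and 15.8 CPM on tnaA. Both ahr-1 values were below those of every N2 library. The log2 fold change was -1.53 ± 0.17 (adjusted p = 0.000154). The authors' deposited table for this comparison gives it a log2 fold change of -0.997 and an adjusted p of 1.30e-04. Of the other genes called here, that table lists nlp-16, flp-15, nlp-18 and nlp-40, with the same signs. It does not list flp-4, flp-6, flp-8, flp-9 or flp-10. By its title that table is limited to genes at an adjusted p under 0.05. It compares the same groups, so it is not independent of the test here. nlp-20 was the sole neuropeptide gene called with at least a 2-fold change, against a background of 2.92% of all genes higher and 1.08% lower.

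nlp-18 differed little among the N2 groups, with 6.16, 6.17 and 6.303 CPM in early K12, 7.05 and 6.44 in early tnaA, 6.52 and 6.78 in late K12 and 5.5998 and 7.41 in late tnaA libraries. In late ahr-1 libraries it stood at 11.02 and 11.6 CPM, above every N2 library. The log2 fold change was 0.77 ± 0.15 (adjusted p = 0.00357), and the authors' deposited table gives 0.57.

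**Figure D4:**
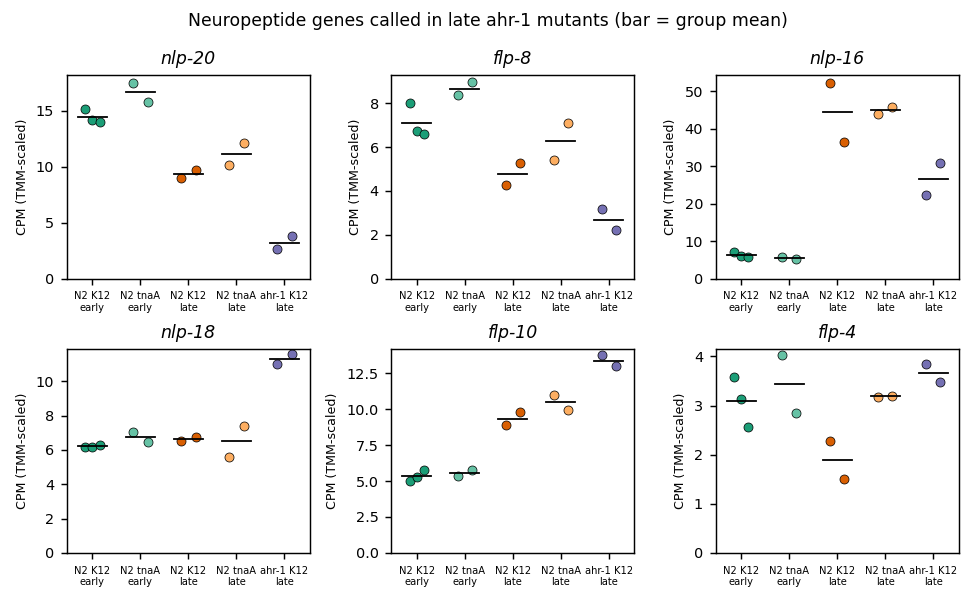
Level of 6 neuropeptide genes called between late ahr-1 and late N2 worms on K12, in every library of the 5 groups, in CPM on TMM-scaled library sizes, with each point a library and each bar the mean of its group. nlp-20 is lowest and nlp-18 highest in the ahr-1 libraries, whereas nlp-16 lies between early and late N2 values, and flp-4 lies within the range of the early N2 libraries.

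The other 8 calls in ahr-1 worms were each lost without at least 1 library. nlp-16, which rose with age in N2, had 22.2 and 30.9 CPM in ahr-1 and 52.1 and 36.5 CPM in N2 late libraries (-0.74 ± 0.16, adjusted p = 0.00638). flp-8 had 3.17 and 2.22 against 4.29 and 5.26 CPM (-0.83 ± 0.24, adjusted p = 0.0214). Both were lower in each ahr-1 library than in each late N2 library on K12. The nlp-16 call was lost without late K12 replicate 1 or ahr-1 replicate 1, and the flp-8 call without late K12 replicate 3 or ahr-1 replicate 3.

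flp-15 had 59.9 and 41.9 CPM in ahr-1 and 31.1 and 35.03 CPM in N2 late libraries on K12 (0.62 ± 0.14, adjusted p = 0.00682), with the ahr-1 replicates well apart from each other. flp-10 had 13.8 and 12.996 against 8.92 and 9.802 CPM (0.52 ± 0.13, adjusted p = 0.0128), and flp-6 33.9 and 33.2 against 24.02 and 26.8 CPM (0.40 ± 0.10, adjusted p = 0.00925). These differences ran in the direction of the ageing change in N2 on K12, as did those of nlp-20 and flp-8. Those of nlp-16, nlp-40 and flp-4 ran against it. All these differences share the late K12 libraries with the ageing comparison. nlp-40 had 76.8 and 85.3 against 59.2 and 68.1 CPM (0.35 ± 0.09), flp-9 13.2 and 14.3 against 9.49 and 10.7 CPM (0.45 ± 0.13), and flp-4 3.84 and 3.47 against 2.29 and 1.51 CPM (0.94 ± 0.29). For none of these genes did the groups overlap, and the share of all genes tested without overlap was not computed. The calls on flp-6, flp-10 and flp-15 were lost without late K12 replicate 1 or ahr-1 replicate 1, that on nlp-40 without late K12 replicate 1 or ahr-1 replicate 3, that on flp-9 without any of those libraries, and that on flp-4 without any of the 4 libraries compared.

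Without late K12 replicate 1, ahr-1 replicate 1 or ahr-1 replicate 3, the number called higher was 1, 2 and 4 in place of 7. The number called lower stayed between 2 and 3. With size factors from pan-neuronal markers, which moved the median of all genes by 0.25, 16 were called higher and 2 lower, and DESeq2 called 3 and 3. Summed sperm markers were 59.3 to 64.2 CPM in late ahr-1 and 17.2 to 18.6 CPM in late N2 K12 libraries, with 14 of 17 tested called higher. The early K12 library with 113 CPM of sperm markers, replicate 3, had 14.01 CPM of nlp-20, beside 15.2 and 14.2 CPM in the other early K12 libraries. It differs from the late ahr-1 libraries in age and genotype. The part of sperm transcripts in these results was not tested.

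**Figure D5:**
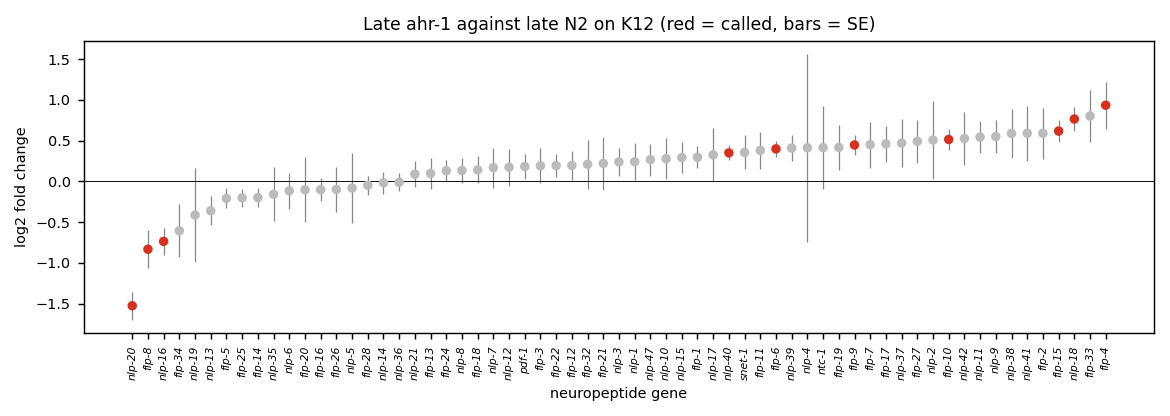
Log2 fold change of the 63 neuropeptide genes tested, late ahr-1 against late N2 worms on K12, in ascending order, with red points called and bars for the standard error. nlp-20 stands alone at the lower end, and most points lie slightly above 0.

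In ahr-1 worms, genes of release were called more often lower than higher, and those of processing and reception seldom. The background was 12.3% of all genes called higher and 12.2% lower. Of 22 genes for dense core vesicles and release 2 (9.09%) were called higher and 6 (27.3%) lower, with unc-13 at -0.39 ± 0.08, hid-1 at 0.33 ± 0.07 and unc-18 at -0.27 ± 0.06. Of 13 processing genes 1 was called, the neprilysin gene nep-1 (0.79 ± 0.10), and of 36 receptor genes npr-17 was called higher (0.59 ± 0.18) and dmsr-1 lower (-0.70 ± 0.21). Pan-neuronal markers had 2 of 25 called higher and 10 lower, with a median of -0.24, opposite in sign to the median of the neuropeptide genes. Some of these markers are also on the release and processing lists, so the counts are not separate observations. Germline markers had 18 of 20 called lower.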

How the data were processed

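Read counts per gene from 11 libraries, 150 worms each, were taken as the authors deposited them. The submitters' processing notes name Trim Galore, STAR, HTSeq 0.6.1p2 and DESeq2, without roles. The build, the annotation and how strand was handled are not given, so reads of opposite-strand neighbours cannot be separated. The authors' deposited tables for the late bacteria and ahr-1 comparisons give log2 fold changes and adjusted p-values. By their titles they are limited to genes at an adjusted p under 0.05. They compare the same groups as the tests here and are not independent of them. For the neuropeptide genes they list, their changes were smaller in size than those here, and why was not tested. Another 8 per-sample columns of those files were not used.

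Genes were tested with edgeR 4.0.16 (R 4.3.3, limma 3.58.1): TMM scaling, filterByExpr by group with a minimum count of 10, and a quasi-likelihood F test, two-sided, in 1 fit over all 11 libraries with a mean per group and 6 residual degrees of freedom. Benjamini-Hochberg adjustment ran over all 15133 genes tested, and a gene was called at an adjusted p under 0.05. Errors are standard errors of the log2 fold change. The method was tested on simulated data. The libraries, numbered within each group in their titles, were taken as biological replicates. Each p-value sets a difference between group means against the spread between libraries, estimated in the fit over all 11. Reads assigned to no gene, 6.14% to 14.8% of a library, and ambiguous reads, under 0.3%, were left out. Library totals were 8310145 to 15307891 counts, so that 1 read was 0.0653 to 0.1203 CPM, before scaling, and counting intervals cover counting error alone. Replicates differed beyond sampling noise (chi-square over degrees of freedom of 2.90 to 5.42), so none was a duplicate.

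Gene names, coding lengths and overlaps came from Ensembl 115 (WBcel235), matched for 63 of 67 symbols, and neighbours from RefSeq. pdf-2 and nlp-49 were not analysed here. Gene lists are textbook markers, and how specific each gene is to its tissue was not checked here. The members and lists were chosen with earlier results of these data known. Named genes were a list of well-known peptides, the 10 largest rises and falls among ageing calls with at least 1 CPM, up to 8 calls of smallest p in each other comparison, the 5 highest per coding length, and up to 3 calls of smallest p per pathway list. Alternatives were DESeq2 1.42.0, other scalings and filters, a replicate block, only the groups compared, and leaving out each library.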

Additional observations from a re-analysis of the deposited data

How the results depend on the processing

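Of the counts of called neuropeptide genes and summed levels, 211 values under an alternative stayed within 1.5 times the main value, or within the replicate spread for the sums, and 29 moved. Of values for single genes, 5816 kept their direction and side of the threshold (or, untested, stayed within the replicate spread), 83 newly passed it, 40 reversed, 12 moved, and the rest no longer passed it. With DESeq2, 5 genes were called lower with age on K12, 3 higher in ahr-1 worms and 0 lower on late K12 than tnaA. With RLE size factors 1 was lower on late K12. With library size alone 31 rose and 3 fell with age on K12 and 36 and 2 on tnaA, and flp-14 (0.33) and pdf-1 (0.41) on K12 and flp-1 (0.44) on tnaA reversed.

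With size factors from pan-neuronal markers 6 rose and 42 fell on K12, 7 and 42 on tnaA, 16 were higher in ahr-1 worms, 0 lower on late K12, and 1 had a larger ageing change on K12. Reversed on K12, among the genes named, were flp-1 (-0.61), flp-3 (-0.83), flp-6 (-0.072), flp-7 (-0.78), flp-9 (-0.66), flp-10 (-0.015), flp-13 (-0.41), flp-18 (-0.73), flp-24 (-0.44), flp-28 (-0.47), nlp-13 (-0.26), nlp-14 (-0.013), nlp-15 (-0.403), nlp-18 (-0.72) and nlp-21 (-0.66). Reversed on tnaA were flp-2 (-1.0004), flp-3 (-0.59), flp-6 (-0.049), flp-9 (-0.80), flp-10 (-0.086), flp-11 (-0.79), flp-13 (-0.59), flp-14 (-0.85), flp-19 (-0.89), flp-24 (-0.68), flp-27 (-0.27), flp-28 (-0.68), nlp-3 (-0.91), nlp-7 (-0.947), nlp-8 (-0.71), nlp-9 (-0.953), nlp-13 (-0.41), nlp-14 (-0.18), nlp-15 (-0.443), nlp-17 (-0.15), nlp-21 (-0.59) and pdf-1 (-0.954). Over all 63 genes tested, those above 0 went from 37 to 8 on K12 and from 42 to 9 on tnaA. This scaling moves all changes by a shared amount by construction. The cause of the other shifts was not tested.

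With the replicate number as a block (replicate block), 14 rose and 8 fell on K12, 17 and 6 on tnaA, 0 were lower on late K12, and 7 were higher and 3 lower in ahr-1 worms. Same-numbered deviations correlated at -0.545 to 0.149 and no comparison has 3 pairs, so the numbers are not taken to pair the libraries. Leaving out 1 library at a time gave 12 to 16 higher and 6 to 9 lower on K12, 11 (without late tnaA replicate 3) to 20 higher and 3 (without early tnaA replicate 3) to 7 lower on tnaA, 0 to 2 lower on late K12, and 1 to 9 higher and 2 to 3 lower in ahr-1 worms. Leaving out both early libraries high in sperm transcripts, an alternative chosen after seeing the data, left 1 lower on late K12. Depth limits flp-23, nlp-22, nlp-23 and nlp-46, which were too rare to test.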
